A study of Homo sapiens with 12 samples.

Results

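Chromosome 1, the longest human chromosome, held 1915 of the 18185 early replicating regions (ERRs) in 4 deposited lists from U2OS-MycER cells. All regions that the lists place on chromosome 1 were taken, whatever their width, score or read count. The shNT list gave 410 of its 3874 regions, the shNT + OHT list 479 of 4653, the shCDK12 list 522 of 4896 and the shCDK12 + OHT list 504 of 4762. Where 4 values are given in list order, they follow this order of the lists. Regions that ended by 121.5 Mb were counted to the short arm (p), those that started from 142.5 Mb to the long arm (q), and the 30 Mb nearest the tip of the short arm were also described on their own as the distal part of p. No ERR of any list lay between the arm limits, and none crossed the limit at 30 Mb. Positions are those of the human genome build hg19, counted from 1.

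U2OS is a human osteosarcoma line, and its MycER derivative expresses a Myc protein joined to an estrogen receptor domain, so that the fusion waits for a ligand. Cells of all 4 conditions carried a hairpin RNA under doxycycline control, either non-targeting (shNT) or against CDK12, a kinase that acts on transcribing RNA polymerase II (shCDK12), and the design text gives doxycycline at 1 µg/mL. MycER was switched on with 300 nM 4-hydroxytamoxifen (OHT) over 40 h in the conditions shNT + OHT and shCDK12 + OHT. Every condition was blocked for 8 h with 100 ng/mL nocodazole, and mitotic cells were shaken off and released for 24 h into 25 µM EdU, a thymidine analogue, with 2 mM hydroxyurea, which depletes nucleotides. The labels give 3 samples per condition (12 in all), but the lists hold 1 set of regions per condition from merged samples. No difference below therefore has a replicate error, no p-value is given, and the intervals describe counting error or the spread between regions of a list only. CDK12 and Myc levels were not measured in this assay.

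Human chromosomes replicate in a set order during S phase. Gene-rich, GC-rich and transcribed stretches tend to replicate early, while gene-poor stretches, those bound to the nuclear lamina and the heterochromatin around centromeres tend to replicate late. EdU taken up in the presence of hydroxyurea stays close to the origins that fire first, because forks stall for lack of nucleotides, and a region rich in such label marks early replication. Chromosome 1 offers both extremes, since the tip of its short arm is among the gene-richest parts of the genome and the base of its long arm carries one of the largest blocks of human heterochromatin.

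ERRs were packed into a few parts of the chromosome, and the distal part of p was the fullest. In shNT, 52.5% of the distal 30 Mb lay in ERRs, against 19.1% of the rest of p and 18.2% of q. In list order, the distal part was covered to 52.5%, 55.7%, 52.2% and 56.5%, the rest of p to 19.1%, 21.3%, 20.1% and 24.3%, and q to 18.2%, 20.2%, 18.8% and 22.9%. In each list the distal part was thus covered over 2 times as densely as either of the others. Over the whole chromosome the lists covered 52.7, 57.7, 54.1 and 63.6 Mb in list order, which was 21.1%, 23.2%, 21.7% and 25.5% of its length. Chromosome 1 ranked 6 among 23 chromosomes (22 autosomes and X) for coverage in every list, and the chromosomes ranged from 3.25% (chromosome 13) to 42.1% (chromosome 19) in shNT.

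In steps of 5 Mb the coverage formed separate peaks. Of 50 steps, 46 held an ERR in at least 1 list. The fullest step was the one from 200 to 205 Mb on q in shNT (73.4%), the one from 20 to 25 Mb on p in shNT + OHT (78.7%) and shCDK12 (77.9%), and the one from 40 to 45 Mb on p in shCDK12 + OHT (84.1%). These 3 steps were high throughout. The step from 20 to 25 Mb had 73.3%, 78.7%, 77.9% and 83.7% in list order. In the step from 40 to 45 Mb the values were 69.0%, 76.0%, 72.4% and 84.1%, and in the step from 200 to 205 Mb they were 73.4%, 74.3%, 72.1% and 77.2%. Steps covered to over 50% numbered 6, 7, 6 and 7 in list order. The 10 fullest steps of a list held 54.0%, 52.3%, 52.9% and 49.9% of its covered length on the chromosome.

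**Figure D1:**
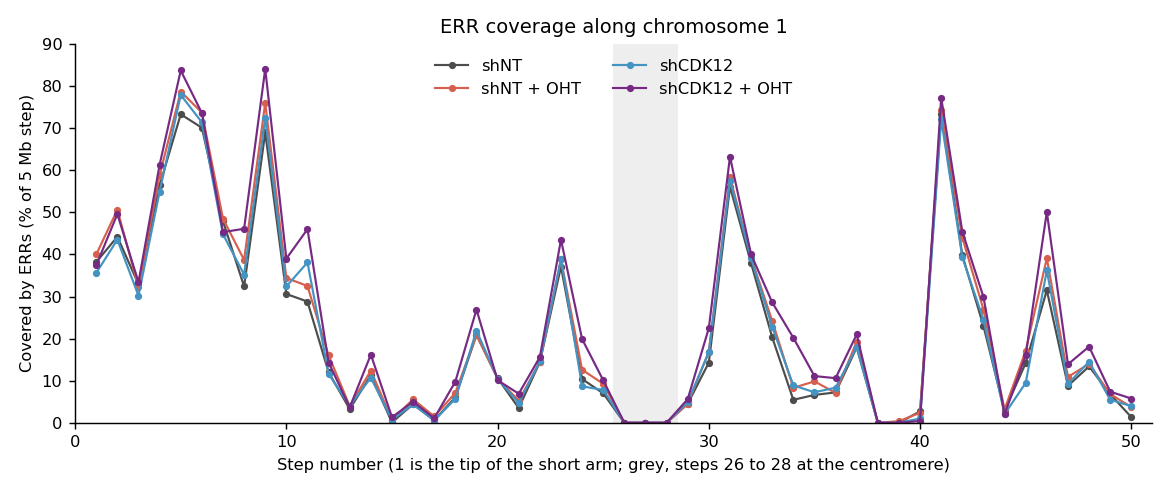
Percent of each 5 Mb step of chromosome 1 that lay in ERRs (y axis) by step number from the tip of the short arm (x axis), with 1 line per merged list and the centromeric steps shaded in grey. All 4 lists follow the same peaks and troughs, with the highest points between 73.4% (shNT) and 84.1% (shCDK12 + OHT).

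Beside the peaks lay long stretches without ERRs. The 4 steps 125 to 130, 130 to 135, 135 to 140 and 185 to 190 Mb, held no ERR in any list. The first 3 belong to the centromere and the heterochromatin beside it, where short reads can seldom if ever be placed. Their lack of ERRs therefore says nothing about when they replicate. The step from 185 to 190 Mb lies inside q. The step from 190 to 195 Mb held 1 ERR in shNT + OHT (0.384% covered) and none in the other lists. Together these made the widest gap between neighbouring ERRs of q, which ran over 14794 kb in shNT (183601601 to 198396000). The ERR between 190 and 195 Mb cut it to 9472.4 kb in shNT + OHT, and it was 14802 kb wide in shCDK12 and 15031 kb wide in shCDK12 + OHT. On p the widest gap lay at 101679201 to 108113200 in shNT (6434.0 kb), and it was 6358.4 kb in shNT + OHT, 6438.0 kb in shCDK12 and 6426.4 kb in shCDK12 + OHT. Within the distal part the median gap was only 56.0 kb in shNT, against 129 kb in the rest of p and 98.0 kb in q.

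The landscape differed little in shape between conditions. Over the 46 steps that held an ERR, Pearson's r of coverage was 0.997 between shNT and shNT + OHT, 0.995 between shNT and shCDK12, and 0.988 between shNT + OHT and shCDK12 + OHT. These values are descriptions: the steps are neighbours on 1 chromosome and share its mappability and base composition.

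ERRs of the distal part were also wider. In list order, the median width there was 139 kb (95% interval of the median 116 to 169), 137 kb (107 to 172), 119 kb (97.6 to 153) and 159 kb (146 to 190). In the rest of p the medians were 74.8, 66.2, 59.2 and 78.8 kb. On q they were 72.8 kb (67.2 to 82.4), 63.2 kb (50.4 to 72.4), 55.6 kb (48.0 to 64.4) and 70.4 kb (64.0 to 80.4). The intervals of the distal part and of q did not overlap in any list. On the other chromosomes the medians were 73.6, 59.4, 54.8 and 70.4 kb, close to those of q. ERRs over 300 kb made up 18.2% of the distal regions of shNT (16 of 88) and 43.1% of their length, against 6.71% of the q regions (11 of 164) and 29.4% of their length. At the other end, 13, 18, 15 and 11 ERRs of the lists, in order, were at most 2 kb wide, and all but 1, 3, 0 and 1 of them lay on p.

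The number and the median width of ERRs depend in part on how far down each list reaches. The lowest score that a list admitted, over all chromosomes, was highest for shNT (146) and shCDK12 + OHT (137), lower for shNT + OHT (99.9) and lowest for shCDK12 (66.1). Of the chromosome 1 ERRs, 91 of shCDK12 (17.4%) and 38 of shNT + OHT (7.93%) scored below 146, against 9 of shCDK12 + OHT and 0 of shNT. With a common minimum score of 146, chromosome 1 held 410, 441, 431 and 495 ERRs in list order, with medians of 81.8, 80.0, 80.4 and 83.6 kb. Without that minimum the medians were 81.8, 72.8, 64.2 and 82.2 kb, so the narrower median of shCDK12 moved with that filter. Above the median score of each list, shCDK12 stayed the narrowest, with medians of 145.8, 131.6, 110.0 and 140.4 kb in list order. Whether scores of different lists share a scale is not given in the sources used here.

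Reads per kb were read against the other chromosomes of the same list, because the deposited counts are not scaled to library size. In list order, the chromosome 1 ERRs held 2036259, 5902257, 1599576 and 3422533 reads, between 11.7% and 12.0% of the reads in ERRs outside chromosomes M and Y. Their mean density was 38.7, 102, 29.6 and 53.8 reads per kb, which was 0.992, 1.001, 1.016 and 1.036 times that of the other chromosomes. The distal part stood above the rest of the chromosome in each list, at 1.103, 1.150, 1.202 and 1.208 times the other chromosomes. The rest of p had ratios of 0.943, 0.924, 0.941 and 0.975, and q of 0.945, 0.955, 0.940 and 0.973.

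**Figure D2:**
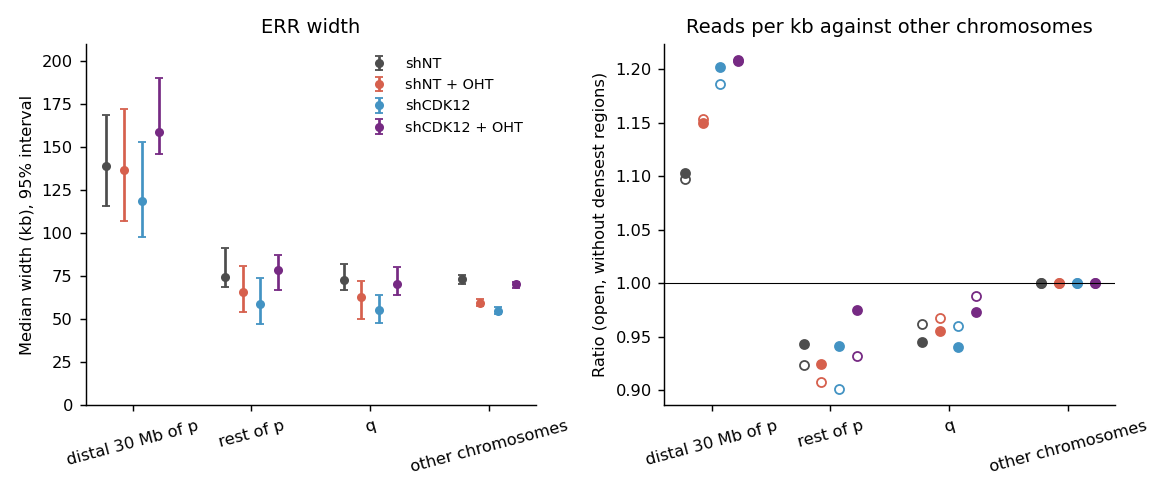
Left, median ERR width in kb (points) with the 95% interval of the median (bars) in the distal 30 Mb of p, the rest of p, q and the other chromosomes, for the 4 merged lists. Right, reads per kb divided by those of the other chromosomes of the list (filled points) and the same without the densest regions (open points); the distal part lies above 1 in every list, and the rest of p and q lie below 1.

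Density also went with width: in every list and part, median density was higher among ERRs of 100 to 200 kb than among those of 20 to 100 kb. Among ERRs of 100 to 200 kb, the median density of the distal part was 31.0 reads per kb in shNT (95% interval 21.6 to 38.3) and that of the other chromosomes 27.0 (26.1 to 27.8). In shNT + OHT the values were 93.2 (63.0 to 115) and 70.6 (67.8 to 73.5), so neither list separated the distal part beyond its spread. In shCDK12 they were 31.6 (26.5 to 37.8) and 22.3 (21.5 to 23.3), and in shCDK12 + OHT 52.1 (41.5 to 65.3) and 37.4 (36.3 to 38.7), where the intervals did not overlap. In the neighbouring classes the intervals overlapped in both of these lists. At 200 to 400 kb the distal part had 36.2 (25.2 to 39.1) against 29.5 (28.1 to 30.7) in shCDK12 and 63.3 (52.0 to 83.2) against 50.2 (47.4 to 52.5) in shCDK12 + OHT. At 20 to 100 kb its median was 15.6 against 14.3 in shCDK12 and 40.1 in shCDK12 + OHT, where the lower limit of the distal interval lay below the other chromosomes' limits of 27.6 to 28.4. Among ERRs of 20 to 100 kb the distal part was not denser in shNT, with a median of 16.0 (14.0 to 17.8) against 18.0 (17.7 to 18.4).

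A few narrow places of p held reads out of proportion to their width. The ERR at 564401 to 570400 had identical limits in all lists and held 15814, 19673, 18258 and 17725 reads in list order. That was 2636 reads per kb in shNT, where the median ERR of the chromosome had 24.9. Its reads varied less between lists than that median, which was 24.9, 60.7, 19.1 and 38.8 reads per kb. Reads on chromosome M, the mitochondrial genome, likewise stayed between 1413690 (shNT + OHT) and 1698827 (shCDK12 + OHT). Copies of mitochondrial sequence are known in nuclear chromosomes, and the part of such reads here was not tested.

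The second dense place, beside the centromere, ended at 121485600 in all lists. It spanned 7.20, 10.8, 7.20 and 17.6 kb in list order and held 22810, 50993, 29926 and 67107 reads. The last was a single 400 bp window at 91852801 to 91853200, with 2139 reads in shNT, 5083 in shNT + OHT and 1816 in shCDK12. In shCDK12 + OHT the ERR there was 3.2 kb wide and held 2655 reads. Without ERRs denser than 50 times the chromosome 1 median, a limit chosen after seeing the data and applied to all chromosomes, the distal part had ratios of 1.097, 1.153, 1.186 and 1.207 to the other chromosomes. Leaving out only the place at 564401, with the other chromosomes as they were, gave 1.078, 1.139, 1.162 and 1.188, so part of the distal excess lay in that place.

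The widest ERR of p in shNT lay close to the tip, at 804801 to 1718400 (913.60 kb, 52885 reads). It had a close counterpart in shNT + OHT (797601 to 1716000, 918.40 kb, 163296 reads), which was both the widest and the highest-scoring ERR of p in that list. In shCDK12 the place spanned 905.20 kb with 33385 reads, and in shCDK12 + OHT it was in 2 pieces of 897.20 kb in all with 65278 reads. The highest score on p belonged to an ERR at 16282801 to 16596400 in shNT (313.60 kb, 131 reads per kb), and to its counterparts in shCDK12 (16275201 to 16600800, 325.60 kb) and shCDK12 + OHT (16294001 to 16786400, 492.40 kb, 110 reads per kb). The shCDK12 + OHT region reached over a neighbour that was separate in the 3 other lists.

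Joining and breaking of ERRs changed which one was the widest. In shCDK12 the widest ERR of p spanned 1099.6 kb at 23662001 to 24761600 with 35869 reads, where shNT had 4 ERRs (1027.2 kb, 41153 reads), shNT + OHT 3 (1100.8 kb, 117308 reads) and shCDK12 + OHT 2 (1296.8 kb, 75141 reads). In shCDK12 + OHT it was 950.00 kb wide at 41484401 to 42434400 with 48720 reads, a place held by 3 ERRs in each of the other lists. The lengths given for the other lists are whole widths of every ERR that overlaps the place, also where one reaches past it. At the first place, the shCDK12 + OHT pieces ran to 24968800.

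On q the widest ERR of shNT was also its highest-scoring one on that arm, at 155812001 to 156935200 (1123.2 kb, 87360 reads, 77.8 reads per kb). The same stretch was in 2 pieces in shNT + OHT (1117.2 kb, 263290 reads), 2 in shCDK12 (1115.6 kb, 64420 reads) and 5 in shCDK12 + OHT (1072.4 kb, 123464 reads). Parts of it were the highest-scoring q ERRs of the other lists, at 156289601 to 156933200 in shNT + OHT (221 reads per kb), 155808801 to 156288800 in shCDK12 (63.1 reads per kb) and 155894401 to 156231600 in shCDK12 + OHT (134 reads per kb). Another of its parts, at 156294001 to 156929600, was the widest q ERR of shCDK12 (635.60 kb, 34108 reads). The widest q ERR of shNT + OHT lay at 200918401 to 201808800 (890.40 kb, 88523 reads), inside the fullest step of q. That of shCDK12 + OHT spanned 154594801 to 155301200 (706.40 kb, 43511 reads), a place that each other list held in 3 pieces of 570.40, 607.20 and 610.00 kb in all.

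The first comparison asked how early replication of the chromosome changed when MycER was activated in cells with CDK12. Counting changes of any size, coverage was higher in 39 steps and lower in 7, for which no share over all chromosomes was computed. The covered length went from 33.3 to 36.2 Mb on p (8.69% more) and from 19.4 to 21.5 Mb on q (11.0% more), against 10.5% more on the other chromosomes. In the distal part it went from 15.8 to 16.7 Mb (6.03% more). The median change of a step was 3.00 points in the distal part, 1.76 on p and 2.14 on q. A step was counted as changed when its coverage moved by at least 2 percentage points. By that measure 22 of 46 steps (47.8%) were higher with OHT, where 32.4% of the steps of all chromosomes were, and 0 were lower, where 0.177% of all steps were. By the ratio of covered length with and without OHT (1.095), chromosome 1 ranked only 16 from the highest among 23 chromosomes. The largest rise was in the step from 225 to 230 Mb, from 31.5% to 39.1%, and the largest fall in the step from 10 to 15 Mb, from 32.9% to 32.2%.

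New ERRs made up much of the gain in number. Of the 479 ERRs of shNT + OHT on chromosome 1, 88 (18.4%, Wilson 95% interval 15.2 to 22.1) overlapped no ERR of shNT, where 21.2% of all ERRs of the list did not. With the common minimum score they numbered 55. Shares over all chromosomes were computed with all ERRs only, here and below, so filtered values have none beside them. With all ERRs, the gained ones were narrow, with a median of 31.8 kb against 89.2 kb for the ERRs found in both lists. Together they spanned 2.93 Mb. They were fewest in the distal part, at 8 of 92 (8.70%, interval 4.47 to 16.2), against 31 of 180 in the rest of p (17.2%, 12.4 to 23.4) and 49 of 207 on q (23.7%, 18.4 to 29.9). The intervals of the distal part and of q did not overlap. Since 1 bp of overlap is enough, wide ERRs in a densely covered part are less easily counted as new. Conversely, 3 of the 410 shNT ERRs (0.732%) were absent with OHT, where 1.60% of all ERRs of shNT were, and all 3 lay in the rest of p.

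The widest gained ERR of p lay at 55201201 to 55318400 (117.20 kb, 4587 reads). It was absent from shNT only: shCDK12 held 2 ERRs there (106.00 kb, 1367 reads) and shCDK12 + OHT 1 (110.80 kb, 4132 reads). The widest gained ERR of q was at 213077201 to 213163200 (86.000 kb, 2675 reads), and the place was again held with OHT in silenced cells (98.000 kb, 2839 reads) and absent from both lists without OHT. The widest lost one, at 92055601 to 92094800 (39.200 kb, 531 reads), was present in both lists without OHT and in neither with it.

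ERRs that were matched one to one hardly changed in width with OHT in shNT cells. Of 336 matched ERRs, 166 (49.4%) were wider, where 47.8% of all matched ERRs were, 147 were narrower, and the median log2 width ratio was 0.00 (95% interval 0.00 to 0.01). Single ERRs of shNT that overlapped at least 2 of shNT + OHT numbered 16 of 410, where the share over all chromosomes was 3.61%. Single ERRs of shNT + OHT that overlapped at least 2 of shNT numbered 29 of 479, where it was 5.52%. Matched ERRs held more reads in the list with OHT: the median log2 read ratio was 1.54 in the distal part (1.48 to 1.60), 1.47 in the rest of p (1.42 to 1.51) and between 1.45 and 1.55 by its interval on q, against 1.46 on the other chromosomes. Because counts are not scaled to library size, only the differences to the other chromosomes can be read, and these were 0.08, 0.01 and 0.04.

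**Figure D3:**
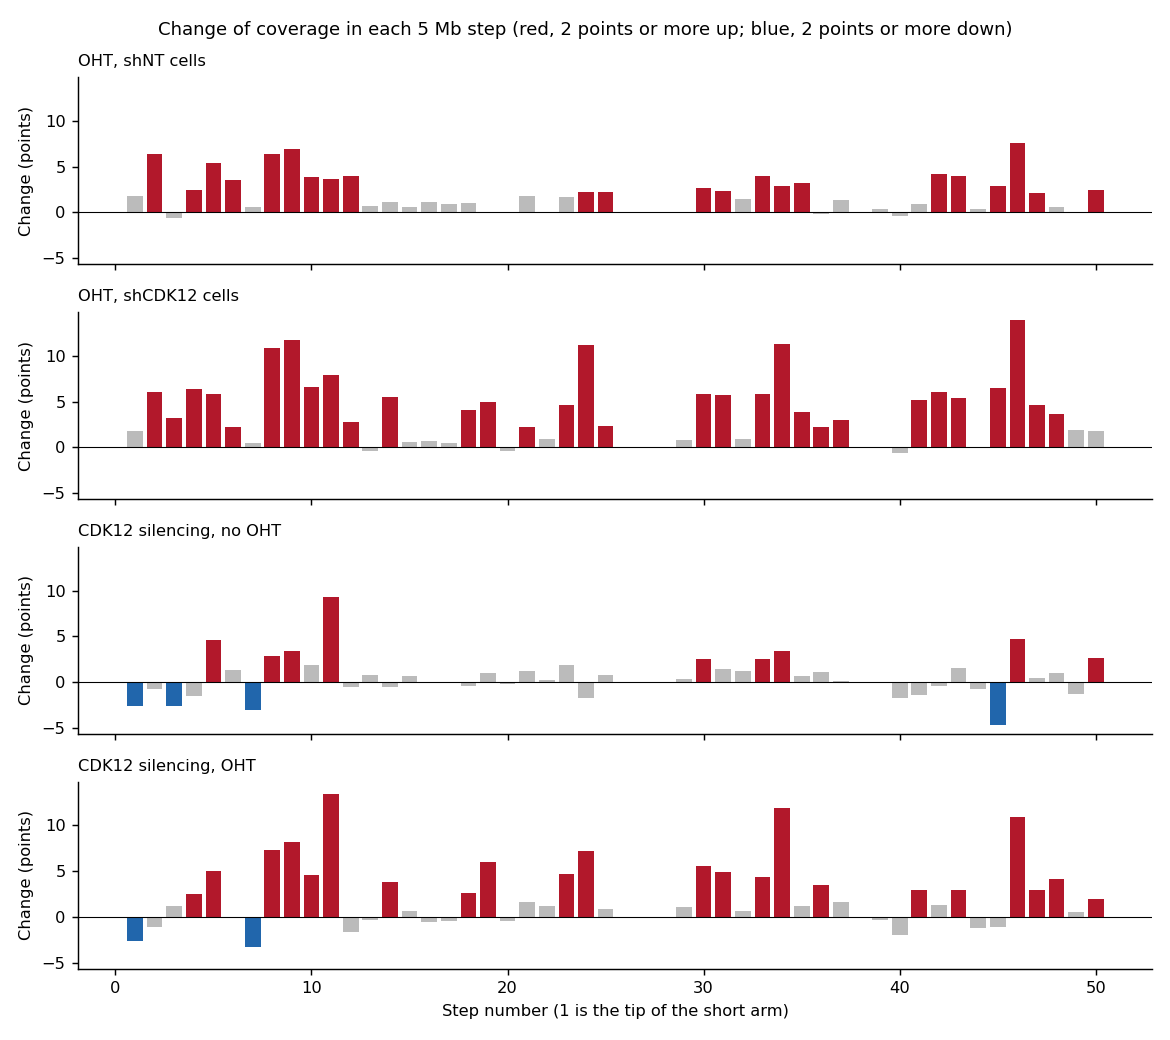
Change of coverage in percentage points (y axis) in each 5 Mb step of chromosome 1 (x axis, numbered from the tip of the short arm) for OHT and for CDK12 silencing, each in both backgrounds. Bars at 2 points or more are red when up and blue when down; with OHT no bar is blue in either background, and the tallest bar is the step from 225 to 230 Mb in shCDK12 cells, at 13.86 points.

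The second comparison asked the same of cells with silenced CDK12. Covered length rose from 34.1 to 39.2 Mb on p (15.1% more) and from 20.1 to 24.5 Mb on q (21.8% more), against 21.3% more on the other chromosomes. Relative to its own covered length the distal part gained least, from 15.7 to 16.9 Mb (8.12% more). The rest of p went from 18.4 to 22.2 Mb (21.0% more). The share of each part that was covered rose by similar amounts. It went from 52.2% to 56.5% in the distal part and from 20.1% to 24.3% in the rest of p. On q it went from 18.8% to 22.9%. The median change of a step was 4.52 points in the distal part, 3.23 on p and 3.82 on q. Steps higher by at least 2 points numbered 31 of 46 (67.4%), where 53.5% of the steps of all chromosomes were, and 0 were lower, where 0.177% of all steps were. By the ratio of covered length (1.176), chromosome 1 again ranked 16 from the highest among 23 chromosomes. The largest rise was again in the step from 225 to 230 Mb, from 36.2% to 50.1%. The steps from 40 to 45 Mb (72.4% to 84.1%), 165 to 170 Mb (8.89% to 20.2%) and 115 to 120 Mb (8.66% to 19.9%) rose by over 11 points each, and the largest fall was from 1.03% to 0.432% between 195 and 200 Mb.

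In silenced cells the added coverage came from wider and joined ERRs as well as new ones. Of 338 matched ERRs 218 (64.5%) were wider with OHT, where 68.1% of all matched ERRs were. The median log2 width ratio was 0.15 on q (0.07 to 0.21) and 0.11 in the rest of p (0.04 to 0.18), against 0.11 on the other chromosomes. It was 0.01 in the distal part (-0.01 to 0.11), where 33 of 64 matched ERRs were wider and 26 narrower. Single ERRs of shCDK12 + OHT that spanned at least 2 ERRs of shCDK12 numbered 66 of 504, where the share over all chromosomes was 12.0%, and up to 5 were joined into 1. Breaking was rarer, with 18 of 522 ERRs of shCDK12 that overlapped at least 2 with OHT, where the share over all chromosomes was 3.23%.

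Gains and losses were both seen in this comparison. Of the ERRs of shCDK12 + OHT, 72 of 504 (14.3%, interval 11.5 to 17.6) were absent from shCDK12, where 15.5% of all ERRs of the list were. With the common minimum score, which also removes low-scoring partners in shCDK12, they numbered 109. Without that minimum they numbered 4 of 86 in the distal part (4.65%), in the rest of p 28 of 193 (14.5%) and on q 40 of 225 (17.8%). Of the ERRs of shCDK12, 29 of 522 (5.56%, interval 3.90 to 7.86) were absent with OHT, where 6.45% of all were, and they lay on p in 24 of 305 cases and on q in 5 of 217. Only 7 were lost with the common minimum score. The shCDK12 list reached to the lowest scores, and the lost ERRs spanned 0.580 Mb in all.

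Named places show how the 4 lists related. The widest gained ERR of p in silenced cells, at 7476401 to 7645600 (169.20 kb, 4217 reads), was absent from shCDK12 but overlapped ERRs of shNT (48.400 kb, 619 reads) and shNT + OHT (138.00 kb, 5708 reads). The widest gained ERR of q held 4039 reads in shCDK12 + OHT and had no counterpart in any other list. It lay in the step from 165 to 170 Mb, and its 170.80 kb were part of a wider filling of that step: shNT held 6 ERRs there, shNT + OHT 10, shCDK12 9 and shCDK12 + OHT 14. The widest lost ERRs were at 64683601 to 64734000 on p (50.400 kb, 595 reads) and at 172587601 to 172626800 on q (39.200 kb, 471 reads). Both were held by shNT and shNT + OHT as well as by shCDK12, and only shCDK12 + OHT lacked them. Their scores in shCDK12 were 172 on p and 127 on q, and the lowest score in shCDK12 + OHT was 137. Whether that limit bears on their absence was not tested.

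Set side by side, the change with OHT was larger in silenced cells in many steps when all ERRs were used, but not among high-scoring ERRs. The rise in coverage in shCDK12 cells exceeded that in shNT cells by at least 2 points in 20 of 46 steps (43.5%). Over all chromosomes 36.1% of the steps did. With the common minimum score the share on chromosome 1 was 60.9%. With all ERRs the rise fell short by as much in 0 steps, for which no share over all chromosomes was computed. Among ERRs above the median score of their list, 22.2% of the steps had the larger change in shCDK12 cells and 24.4% the smaller. Covered length then rose with OHT by 4.26 Mb in shNT and 4.29 Mb in shCDK12 cells on p, and on q by 2.23 Mb in shCDK12 cells, less than in shNT cells. With all ERRs, the largest excess was in the step from 115 to 120 Mb. Its coverage was 10.4%, 12.6%, 8.66% and 19.9% in list order, and its change with OHT was 2.22 points in shNT cells and 11.22 points in shCDK12 cells. The next was the step from 165 to 170 Mb, with 5.46%, 8.30%, 8.89% and 20.2% and an excess of 8.48 points. At the other end, the step from 25 to 30 Mb had 70.1%, 73.7%, 71.4% and 73.6%, and the change with OHT was 1.39 points smaller in silenced cells. The difference between backgrounds was not tested, since each condition has a single list.

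The third comparison asked what CDK12 silencing did without OHT. Here more ERRs covered nearly the same length, although the rise in number depended on the score filter. The number rose from 246 to 305 on p and from 164 to 217 on q, while covered length rose from 33.3 to 34.1 Mb on p (2.34% more) and from 19.4 to 20.1 Mb on q (3.42% more), against 2.10% more on the other chromosomes. With the common minimum score both arms turned the other way, by -0.618 Mb on p and -0.367 Mb on q, so a direction of the covered length cannot be given. The number then went from 246 to 251 on p and from 164 to 180 on q. This minimum is the lowest score of shNT, so it removed 0 ERRs of shNT and 91 of shCDK12. Above the median score of each list, the number on the chromosome still rose from 228 to 299. Steps higher by at least 2 points numbered 9 of 46, where 18.2% of the steps of all chromosomes were, and 4 were lower, where 11.7% of all steps were. The balance turned with the common minimum score, where 8.70% of the steps were higher and 23.9% lower. The largest rise was in the step from 50 to 55 Mb, from 28.8% to 38.1%, and the largest fall in the step from 220 to 225 Mb, from 14.2% to 9.48%.

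The larger number came mostly from ERRs at places that shNT lacked. Of the 522 ERRs of shCDK12, 94 (18.0%, interval 14.9 to 21.5) were absent from shNT, where 20.2% of all were. They had a median width of 29.6 kb. Of the ERRs of shNT, 9 (2.20%, interval 1.16 to 4.12) were absent from shCDK12, where 6.07% of all were. Gains numbered 34 and losses 32 with the common minimum score, for which no share over all chromosomes was computed. Of the 410 ERRs of shNT, 45 overlapped at least 2 ERRs of shCDK12 (11.0%), where the share over all chromosomes was 10.5%. Conversely, 20 of 522 ERRs of shCDK12 overlapped at least 2 of shNT, where it was 3.62%. Of 321 matched ERRs 121 (37.7%) were wider in shCDK12, where 34.9% of all matched ERRs were, and the median log2 width ratio was -0.03 (-0.04 to -0.01).

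Single places of this comparison behaved differently from each other. The widest ERR lost on p, at 30102001 to 30226000 (124.00 kb, 2034 reads), was held by shNT and shNT + OHT (80.400 kb, 3816 reads) and absent from both lists of silenced cells. The widest lost on q, at 221982401 to 222052800 (70.400 kb, 990 reads), was absent from shCDK12 only. It was present in shNT + OHT (84.400 kb, 4708 reads) and in shCDK12 + OHT (69.200 kb, 2055 reads). The widest gained ERRs, at 55235201 to 55311600 on p (76.400 kb, 965 reads) and 168044401 to 168113600 on q (69.200 kb, 901 reads), were held by all lists but shNT.

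**Figure D4:**
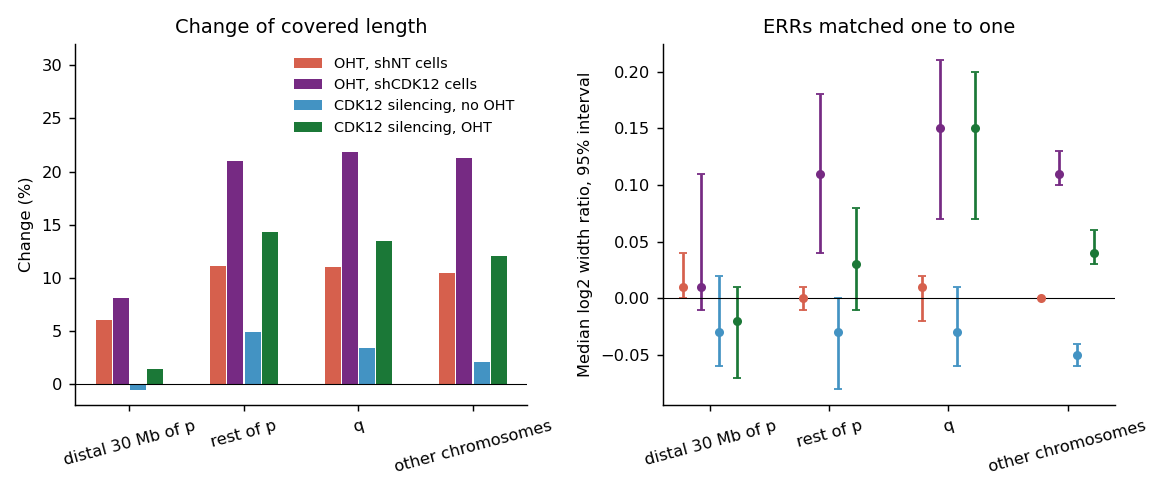
Left, percent change of covered length in the distal 30 Mb of p, the rest of p, q and the other chromosomes for the 4 comparisons. Right, median log2 width ratio of ERRs matched one to one (points) with its 95% interval (bars). For silencing in cells with OHT (shCDK12 + OHT against shNT + OHT) the q value is 0.15 and the distal value -0.02.

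The fourth comparison set silenced against control cells with OHT in both. Covered length was 39.2 against 36.2 Mb on p (8.35% more) and 24.5 against 21.5 Mb on q (13.5% more), with 12.1% more on the other chromosomes. Nearly all of the difference on p lay outside the distal part, which went from 16.7 to 16.9 Mb (1.46% more), while the rest of p went from 19.5 to 22.2 Mb (14.3% more). The ERRs of shCDK12 + OHT on the chromosome held 3422533 reads, against 5902257 in shNT + OHT. In both comparisons of OHT, the list that covered more also held more reads. Whether read depth bears on covered length was not tested in any comparison. Steps higher by at least 2 points numbered 22 of 46, where 37.5% of the steps of all chromosomes were, and 2 were lower, where 8.32% of all steps were. The largest rise was again in the step from 50 to 55 Mb, from 32.5% to 46.0%, and the largest fall in the step from 30 to 35 Mb, from 48.5% to 45.3%.

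Matched ERRs of q were the wider ones in silenced cells when all ERRs were used. On q, 97 of 148 were wider in silenced cells and the median log2 width ratio was 0.15 (0.07 to 0.20), but it was 0.04 among ERRs above the median score of their list. In the distal part 22 of 58 were wider and 34 narrower, with a median of -0.02 (-0.07 to 0.01), and the 2 intervals did not overlap. In the rest of p the median was 0.03 (-0.01 to 0.08) and on the other chromosomes 0.04 (0.03 to 0.06). Over the whole chromosome 183 of 329 (55.6%) were wider, where 56.4% of all matched ERRs were. Matched read ratios were ordered in the same way: on the log2 scale they differed from the other chromosomes by -0.20 in the distal part, -0.06 in the rest of p and 0.16 on q. The interval of the q median (-0.38, -0.48 to -0.23) lay above that of the other chromosomes (-0.54, -0.57 to -0.52).

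ERRs were both gained and lost in this comparison. Of the ERRs of shCDK12 + OHT, 65 of 504 (12.9%, interval 10.2 to 16.1) were absent from shNT + OHT, where 14.8% of all were, and with the common minimum score 85 were gained and 38 lost. The distal part had 1 such ERR among 86, with 33 of 193 in the rest of p and 31 of 225 on q. Of the ERRs of shNT + OHT, 42 of 479 (8.77%, interval 6.55 to 11.6) were absent from silenced cells, where 11.5% of all were. Single ERRs of shNT + OHT that overlapped at least 2 of shCDK12 + OHT numbered 40, where the share over all chromosomes was 6.32%. Those of shCDK12 + OHT that overlapped at least 2 of shNT + OHT numbered 36, where it was 7.48%.

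The widest ERR gained on p was at 54073201 to 54222400 (149.20 kb, 3773 reads), inside the step with the largest rise. Of the other lists, only shCDK12 held an ERR there, of 35.200 kb with 333 reads. On q the widest gained ERR was again the one of 170.80 kb in the step from 165 to 170 Mb. The widest lost ERR of p, at 30130401 to 30210800 (80.400 kb, 3816 reads), was the place near 30 Mb that both lists of silenced cells lacked. On q it was the one at 198399601 to 198478000 (78.400 kb, 3346 reads), which shNT held in 2 pieces (89.200 kb, 1807 reads) and shCDK12 in a remnant of 18.000 kb with 252 reads.

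The gains were seen in sparse and in full steps. Steps were sorted by their coverage in a list that took no part in the comparison. With OHT in silenced cells, 17 steps covered to under 10% in shNT went from a mean of 4.65% to 6.76%, a ratio of 1.45, and 13 of them rose. In 21 steps between 10% and 40% the mean went from 24.2% to 29.5% (ratio 1.22), and 20 of them rose. In 8 steps of 40% or more it went from 61.8% to 67.3% (ratio 1.09), and all 8 rose. With OHT in shNT cells, sorted by shCDK12, the ratios were 1.26 over 19 steps, 1.10 over 19 and 1.06 over 8. A step near full coverage has little room to rise, so the ratios of the classes are not on equal terms.

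Overlapping ERRs of the 4 lists were last merged into 505 places on chromosome 1, of 69.2 Mb in all. All lists held an ERR at 325 of them (64.4%), where the share over all chromosomes was 59.7%, and these took up 86.8% of the merged length. In the distal part 65 of 78 places (83.3%) were held by all lists, in the rest of p 126 of 208 (60.6%) and on q 134 of 219 (61.2%). Sharing needs only 1 bp of overlap, and distal ERRs were wider and more densely packed, so these shares are not on equal terms. Places held by a single list were narrow. There were 47 in shCDK12 + OHT (9.31% of the places, median 47.6 kb), 21 in shNT + OHT (4.16%, 26.8 kb), 13 in shCDK12 (2.57%, 17.2 kb) and 0 in shNT, close to the shares over all chromosomes of 9.25%, 4.70%, 2.40% and 0.480%. A further 38 places (7.52%, median 60.4 kb) were held by every list but shNT, where the share over all chromosomes was 7.89%. Of these, 20 lay on q (9.13% of its places) and 18 on p (6.29%). Both lists with OHT and neither without held 20 places (3.96%), where the share over all chromosomes was 3.74%. Of those, 14 lay on q (6.39% of its places), 4 in the rest of p (1.92%) and 2 in the distal part (2.56%).

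**Figure D5:**
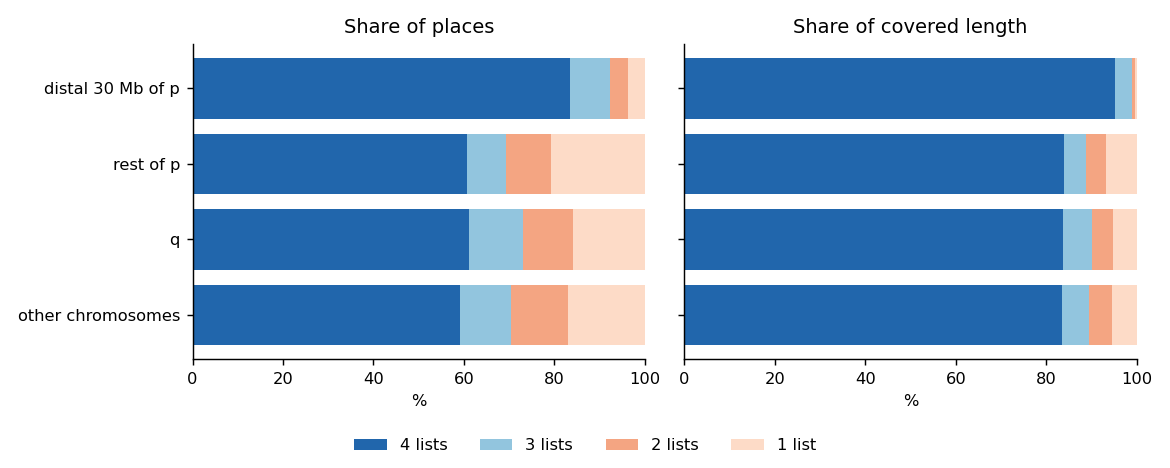
Share of merged places (left) and of merged length (right) held by 4, 3, 2 or 1 of the lists in the distal 30 Mb of p, the rest of p, q and the other chromosomes. The distal part has the longest bar for 4 lists, at 83.3% of its places and 95.2% of its length.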

How the data were processed

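EdU-HU-seq data of 12 samples, 3 in each of 4 conditions, were deposited as 1 list of regions per condition from merged samples. The deposited read counts are whole reads per region, not scaled to library size, and the deposited score is the region caller's own value. Per the submitters' processing notes, BWA 0.6.2, SAMtools and SICER and the builds hg19 and mm10 were used; parameters, control library and duplicate removal are not given in the sources used here. Limits lie on a 400 bp grid, no gap was under 4400 bp, and the lists ran 284378 bases past the end of chromosome 1 in hg38, the build at hand, so gene annotation and sequence were not used here.

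Members, parts, rules and alternatives were chosen with earlier results of these data known. ERRs were shared at 1 bp of overlap and matched when each overlapped the other alone. Covered length was summed in 5 Mb steps. Steps of all chromosomes but M and Y gave the step background, and background shares include chromosome 1. They were computed with all ERRs only, not under the alternatives. Wilson 95% intervals were used for shares and exact binomial order-statistic 95% intervals for medians. Regions named were, per arm, the widest and highest-scoring of each list and the widest of each list absent from the other. With 1 list per condition no test was run. The functions were tested on simulated data. Alternatives covered score, width, joining, overlap, step and reference. Library totals are not given in the sources used here, so depth is known only as reads in regions. Scripts ran in Python 3.11.15 with scipy 1.17.1, pandas 2.3.3, matplotlib 3.10.9 and numpy 2.4.6.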

Additional observations from a re-analysis of the deposited data

Results flagged for a closer look

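Several measures moved in opposite directions with OHT in shNT and in shCDK12 cells. These differences were left untested, because each condition has 1 merged list. The number of ERRs on chromosome 1 changed by 69 in shNT and by -18 in shCDK12. On p it changed by 26 and -26, in the distal part by 4 and -14, and in the rest of p by 22 and -12, while on q it rose in both. The median width changed by -9.0 and 18.0 kb on the chromosome, by -9.2 and 23.6 kb on p, by -2.2 and 40.4 kb in the distal part, by -8.6 and 19.6 kb in the rest of p and by -9.6 and 14.8 kb on q. Relative reads per kb in the rest of p changed by -0.019 and 0.034.

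With the common minimum score the number on chromosome 1 instead rose in both backgrounds, by 31 in shNT and by 64 in shCDK12, and in the distal part it changed by 0 and -5. The change of the median width was then -1.8 and 3.2 kb on the chromosome and -5.0 and 7.2 kb on q, but of 1 sign on p (1.8 and 4.4 kb), in the distal part (4.6 and 29.6 kb) and in the rest of p (2.8 and 0.8 kb). The opposite signs of the number on the chromosome were thus gone with the common minimum score. They stayed above the median score of each list, where the number changed by 45 and -6. When ERRs up to 100 kb apart were joined, the median width on q changed by 9.0 and 6.0 kb, so its opposite signs were gone. On the chromosome, on p and in both parts of p the opposite signs of the median width stayed with that joining.

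The change with silencing also had opposite signs without and with OHT, again untested. The median width changed by -17.6 kb without OHT and 9.4 kb with it on the chromosome, by -19.8 and 13.0 kb on p, by -20.4 and 22.2 kb in the distal part, by -15.6 and 12.6 kb in the rest of p and by -17.2 and 7.2 kb on q. With the common minimum score these were -1.4 and 3.6 kb on the chromosome, 1.8 and 4.4 kb on p, -9.6 and 15.4 kb in the distal part, 4.0 and 2.0 kb in the rest of p and -6.4 and 5.8 kb on q, so that the opposite signs on p and in its rest were gone. Above the median score of each list the opposite signs stayed, with -35.8 and 8.8 kb on the chromosome and -34.8 and 4.8 kb on p. When ERRs up to 100 kb apart were joined, the median width on q rose without and with OHT, by 25.8 and 22.8 kb. On the chromosome, on p and in both parts of p the opposite signs stayed with that joining. With all ERRs, in the distal part the number of ERRs changed by 12 and -6 and the covered length by -0.0808 and 0.243 Mb. Relative reads per kb changed by -0.002 and 0.050 in the rest of p and by -0.005 and 0.018 on q.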

How the results depend on the processing

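Of 290 values computed under alternatives for 62 results, 167 kept within the interval or 1.5 times of the value reported, 121 moved further and 2 reversed. The reversed ones were the change of covered length with silencing and no OHT, -0.618 Mb on p and -0.367 Mb on q with the common minimum score of 146. Above the list's median score these were 1.81 and 1.08 Mb, and the change with OHT in shCDK12 on q was 2.23 Mb. The change with silencing in cells with OHT was then 1.84 Mb on p and 0.815 Mb on q. The number of ERRs in the order shNT, shNT + OHT, shCDK12 and shCDK12 + OHT was 228, 273, 299 and 293 above the median score, which removes regions by construction, and 198, 238, 216 and 207 when ERRs up to 100 kb apart were joined. ERRs gained with OHT in shNT numbered 55 with the common minimum score and 45 when joined up to 100 kb. With OHT in shCDK12 they numbered 109 with the common minimum, which also removes partners, 24 above the median score, 31 when joined up to 100 kb and 147 with a reciprocal overlap of 50%. Gains with silencing numbered, without OHT, 34, 30 and 168 (common minimum, joined up to 100 kb, reciprocal overlap) and, with OHT, 28, 23 and 146 (above the median score, joined up to 100 kb, reciprocal overlap). The share of steps that were higher was, for any change, 84.8% and 89.1% with OHT in shNT and shCDK12, and 58.7% and 71.7% with silencing without and with OHT. For silencing without OHT it was 8.70% with the common minimum and 33.5% in 1 Mb steps, and for silencing with OHT 26.7% above the median score. The share of steps with a change with OHT larger in shCDK12 by at least 2 points was 60.9% with the common minimum and 22.2% above the median score, both chosen after seeing the data. Above the median score, the median log2 width ratio on q was 0.06 with OHT in shCDK12 and 0.04 with silencing in cells with OHT. On p the ratio for silencing in cells with OHT was 0.05 when joined up to 100 kb. Relative reads per kb of the distal part, in the same order of lists, were 1.012, 1.051, 1.095 and 1.078 above the median score and 1.083, 1.144, 1.171 and 1.195 at 10 kb or wider. They were 1.138, 1.164 and 1.204 with the common minimum in the last 3 lists, and 1.097, 1.153 and 1.186 in the first 3 without the densest regions, a choice made after seeing the data. Without the dense distal region alone, also chosen then, they were 1.078, 1.139, 1.162 and 1.188. Divided by the reads per kb of 56 narrow regions in place of the other chromosomes, they were 0.077, 0.090, 0.075 and 0.086. Where no cause is named it was not tested. Leaving out a replicate was not run, because each list is merged, and depth beyond the reads in regions is unknown. No paired analysis was possible because the result comes from no test and the merged lists carry no replicate numbers.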
